A study of Mus musculus with 9 samples.

Results

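Cadherins and non-clustered protocadherins were followed as a group in RNA of dorsal root ganglia (DRG) from E18.5 mouse embryos. The group was defined by name: the numbered Cdh genes, Pcdh genes outside the alpha, beta and gamma clusters, Fat1 to Fat4, Celsr1 to Celsr3, and both Dachsous genes. Of 55247 genes in the count table, 44 carried such a name, and 36 of them had at least 100 counts in at least 1 of 9 libraries. These 36 were among the 13200 genes that passed the same filter and were tested. The study addressed the role of the transcription factor Meis2 in sensory neurons, with 3 libraries in each of 3 genotypes. WT embryos carried neither modified allele, and Isl1Cre/+ embryos carried Cre recombinase inserted in 1 copy of Isl1, a gene active in postmitotic sensory neurons. Isl1Cre/+::Meis2LoxP/LoxP embryos, called mutant here, carried the same Isl1 allele and, on both chromosomes, a Meis2 gene whose exon 8 is floxed, that is, removed where Cre is active. Isl1Cre/+ libraries therefore share the Cre allele with the mutant, while WT libraries differ from the mutant at both genes.

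Cadherins are transmembrane proteins whose extracellular repeats bind calcium and adhere to like molecules on neighbouring cells. Classical type I and type II cadherins hold the actin cytoskeleton through catenins, whereas protocadherins bind more weakly and signal through other cytoplasmic partners. The giant Fat, Dachsous and Celsr cadherins are known for planar cell polarity and for the guidance of axons and dendrites. In developing ganglia and nerves, members of the family are known in neurons, in Schwann cells, in connective tissue and in vessels, so a bulk DRG library sums over these cell types. Fewer cells of a type and less RNA per cell cannot be told apart in such data.

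The libraries held between 23854607 and 29103444 counts. Meis2 lay between 89.5 and 110 cpm (counts scaled to a common library size, by TMM over all 9 libraries) in the 6 control libraries, and the mutant differed by a log2 fold change of -1.33 from WT and -1.23 from Isl1Cre/+. The floxed exon is only a part of the gene, so reads outside exon 8 can still be counted. Meis2 kept a mean of 40.9 cpm in the mutant, against 102.7 cpm in WT. What makes up the remaining counts was not tested. The log2 fold change of Isl1 was -0.48 relative to WT in Isl1Cre/+ and also -0.48 in the mutant. Summed sensory neuron markers lay between 10222 and 16031 cpm, against 15.6 to 29.6 cpm for spinal cord markers and 1.48 to 4.75 cpm for epithelial markers. Skeletal muscle markers ranged from 61.8 cpm to 2059 cpm, the lowest in Isl1Cre/+ library 3 and the highest in mutant library 2. Across the tested genes, mutant library 2 and WT library 1 had the lowest median rank correlations with the other libraries, 0.979 and 0.981, against 0.991 to 0.995 for the remaining 7. Counts of the Y-linked gene Ddx3y were present in WT libraries 1 and 2 and in mutant library 1 and were 0 in the other 6, so that the sexes were not balanced between genotypes. The labels do not say that replicates are separate embryos, so p-values measure the spread between these libraries.

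The members were expressed over a wide range. Levels were compared between genes as cpm per kilobase of exon, averaged over the 9 libraries. On this per-kilobase scale the median member stood at 4.53, against 6.55 for all genes tested, and members ran from 44.0 for Cdh11 to 0.19 for Fat2. Cdh11, Cdh5, Pcdh1, Cdh2, Cdh1 and Pcdh9 were the 6 highest and together made up 55.2% of the summed level of the members. Type II cadherins contributed 41.8% of that sum, delta-1 protocadherins 20.3%, type I cadherins 17.3% and delta-2 protocadherins 9.3%. The Fat and Dachsous genes added 4.85%, the Celsr genes 4.43%, the GPI-anchored Cdh13 1.2%, and Pcdh12 with Pcdh15 the last 0.731%.

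Among type II cadherins, Cdh11, a cadherin of mesenchymal and glial cells, lay above every other member in every library, between 38.2 and 46.3 per kilobase. Cdh5, the cadherin of endothelial junctions, was second with 31.9 on average, and its libraries ran from 22.4 to 42.8. Cdh6 at 9.31 and Cdh19, a cadherin of Schwann cell precursors, at 9.22 were neighbours whose libraries overlapped. Cdh8, Cdh12 and Cdh18 followed at 7.57, 5.63 and 5.60, and the remaining members Cdh9, Cdh10, Cdh24, Cdh20 and Cdh7 ended at 1.13. Type I was led by Cdh2, the neural cadherin, at 22.6 and Cdh1, the epithelial cadherin, at 17.9, followed by Cdh4 at 6.56 and Cdh3 at 3.64. Cdh1 was thus a major cadherin of these libraries although the 6 epithelial markers together did not exceed 4.75 cpm.

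Of the delta-1 protocadherins, Pcdh1, Pcdh9 and Pcdh7 were high, at 27.8, 17.4 and 13.0 per kilobase, and the X-linked Pcdh11x was low at 1.397. The delta-2 group was led by Pcdh10 at 10.2 and Pcdh17 at 9.19, and Pcdh18, the X-linked Pcdh19 and Pcdh8 had 4.09, 2.75 and 0.992. Pcdh12, a protocadherin of endothelium, had 1.90 and Pcdh15, known from the tip links of hair cells, 0.243. Celsr2 and Celsr3 had nearly equal levels, 5.37 and 5.31, with overlapping libraries, and Celsr1 had 2.32. Fat1 at 4.98 and Dchs1, the ligand of Fat4, at 3.82 stood above Fat3 at 2.84 and Fat4 at 2.40.

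**Figure D1:**
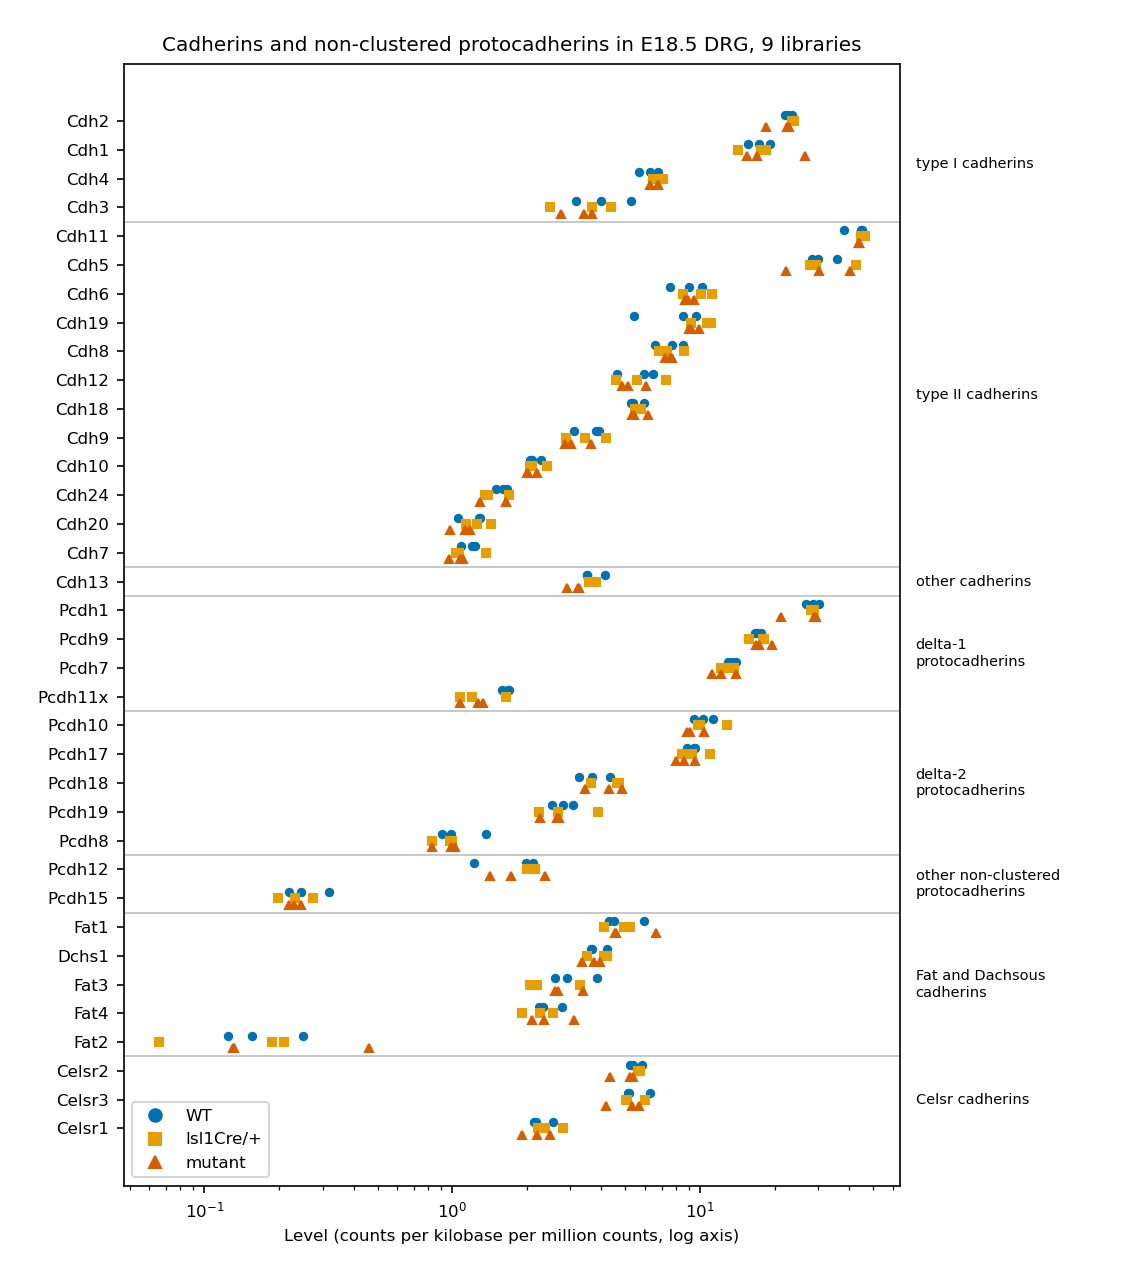
Level of each of the 36 members in each of the 9 libraries, in cpm per kilobase of exon on a log axis, grouped by family; points are libraries, and colours and shapes mark the genotype. Cdh11 is highest at a mean of 44.0 and Fat2 lowest at 0.19, and within most rows the genotypes lie on top of each other.

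The plot of levels by library shows the genotypes overlapping within most rows. The ratio of the highest to the lowest library was 7.02 for Fat2. For the others it ran from 1.17 for Cdh18, the steadiest, to 2.14 for Cdh3. Fat2 was also among the members just inside the count filter, with a highest count of 176, beside Cdh20 at 169 and Cdh24 and Pcdh8 at 165. The 8 named genes below the filter included the muscle cadherin Cdh15 with at most 92 counts and Dchs2 with at most 86. The other 6 were Cdh17, Cdh22, Pcdh20, Cdh23, Cdh26 and Cdh16, of which none exceeded 48 counts.

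Relative to WT, Pcdh11x fell in the mutant, and it was the only member that met the study's criterion of a fold change of at least 1.2 with an unadjusted p under 0.05. That is 1 of 36 members, against 0.318% of all genes tested in this comparison, or 0.258% for a lower level. Relative to Isl1Cre/+, 0 members met the criterion, against 1.67% of all genes, and 0 did between Isl1Cre/+ and WT, against 1.4%. At an unadjusted p under 0.05 without the fold requirement, edgeR's quasi-likelihood test gave 2 members in the mutant against WT (Cdh13 and Pcdh11x, both lower), 1 against Isl1Cre/+ (Cdh13) and 0 between the control genotypes. The corresponding shares of all genes were 0.371% (0.295% lower), 2.73% and 1.79%. DESeq2's Wald test and limma voom gave the same counts of members meeting the criterion, 1, 0 and 0. With Benjamini-Hochberg adjustment of edgeR's p over all genes, 0 members passed 0.05 in any comparison. Among all genes, that adjusted threshold left Meis2 alone in each comparison of the mutant (0.00758%) and 0 genes (0%) between the controls.

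Pcdh11x encodes a delta-1 protocadherin and lies on the X chromosome of mm10, from 120290259 to 120910619 on the forward strand, with exons that overlap no other annotated gene. Its levels were 23.6, 22.2 and 23.5 cpm in WT, 14.9, 16.8 and 23.0 cpm in Isl1Cre/+, and 18.6, 17.8 and 15.02 cpm in the mutant. All mutant libraries lay below all WT libraries, while Isl1Cre/+ overlapped both other genotypes, with replicate 1 the lowest of the 9 libraries, replicate 2 among the mutant values and replicate 3 among the WT values. The means were 23.1 ± 0.754 cpm in WT, 18.2 ± 4.21 cpm in Isl1Cre/+ and 17.1 ± 1.89 cpm in the mutant (SD, n = 3 each). Against WT the mutant had a log2 fold change of -0.43 ± 0.111 (standard error), with edgeR's p at 0.00544 before and 0.9999 after adjustment. Against Isl1Cre/+ the value was -0.088 (standard error 0.169, unadjusted p = 0.617 from edgeR). Between Isl1Cre/+ and WT it was -0.33 (standard error 0.161, unadjusted p = 0.0780 from edgeR), and without Isl1Cre/+ replicate 3 Pcdh11x met the criterion there too. Without that same library, the sign against Isl1Cre/+ turned, to 0.11. With a term for libraries that hold Y-linked counts, the value against WT was -0.41 (unadjusted p = 0.0138 from edgeR). WT library 3, without Y-linked counts, stood at 23.5 cpm, beside 23.6 and 22.2 cpm in the WT libraries that have them. Pcdh19, the other X-linked member, had 29.3 ± 2.76 cpm in WT and 26.5 ± 2.39 cpm in the mutant (SD, n = 3 each), and its libraries overlapped.

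Cdh13 was the only member in which every mutant library lay below all 6 control libraries, a pattern of 0.568% of all genes tested. The gene encodes T-cadherin, which lacks a cytoplasmic part and is held by a lipid anchor, and lies on chromosome 8 of mm10 from 118283733 to 119324921 on the forward strand. It had 46.6, 39.3 and 39.3 cpm in WT, 40.0, 41.5 and 42.8 cpm in Isl1Cre/+ and 36.4, 36.1 and 32.8 cpm in the mutant. The Isl1Cre/+ libraries lay inside the range of WT, and the gap between the lowest control and the highest mutant library was small beside the spread of WT. Against WT the mutant had a log2 fold change of -0.25 ± 0.101 (standard error, edgeR's unadjusted p = 0.0402), and against Isl1Cre/+ one of -0.24 (standard error 0.0672, unadjusted p = 0.00830 from edgeR), each under the 1.2-fold limit of 0.263 on the log2 scale. The adjusted p of edgeR was 0.9999 and 0.9997. With the term for Y-linked counts, the value against WT was -0.22 (unadjusted p = 0.0935 from edgeR), and without WT library 1 it was -0.16 (unadjusted p = 0.0653 from edgeR). Both comparisons use the same mutant libraries. Of 15 alternatives, 8 kept the unadjusted p under 0.05 relative to WT and 15 relative to Isl1Cre/+.

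**Figure D2:**
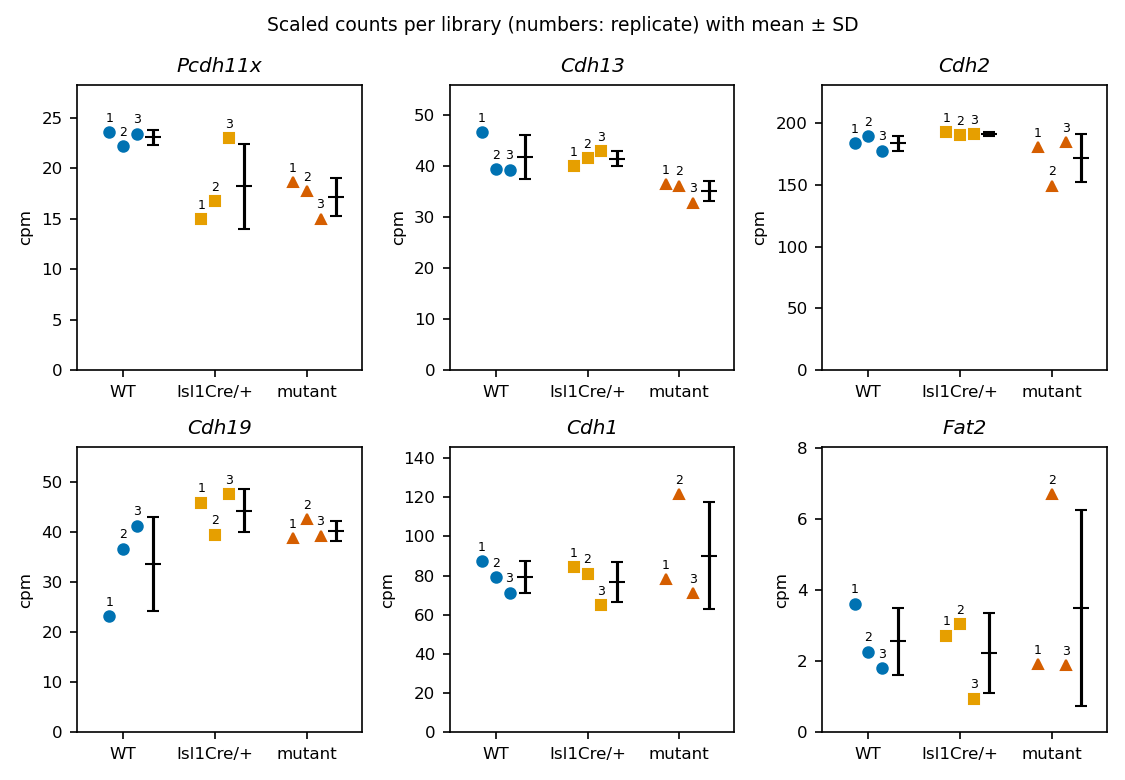
Scaled counts (cpm) of 6 members in each library, with points numbered by replicate and bars giving the mean ± SD of 3 libraries. Mutant libraries lie below WT for Pcdh11x (15.02 to 18.6 against 22.2 to 23.6 cpm) and below all controls for Cdh13, while single libraries set the spread of Cdh19, Cdh1 and Fat2.

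The plot of named members by library shows Pcdh11x and Cdh13 separating the mutant from WT, and Cdh2 separating Isl1Cre/+ from both other genotypes. Cdh2 had 183, 190 and 178 cpm in WT, 193, 190 and 191 cpm in Isl1Cre/+, and 180, 149 and 185 cpm in the mutant. Each Isl1Cre/+ library was above the other 6, a pattern found in 1% of all genes tested, but the closest libraries, 189.5 and 189.9 cpm, were nearly equal. Isl1Cre/+ differed from WT by a log2 fold change of 0.07 (standard error 0.0692) and the mutant from Isl1Cre/+ by -0.16 (standard error 0.0863), and neither difference passed the test. Without the low mutant library 2 the latter was -0.061.

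In the mutant against Isl1Cre/+, 4 members had libraries that did not overlap, all with the mutant lower: Cdh11, Cdh13, Cdh2 and Celsr2. Of all genes tested, 7.65% did not overlap in this comparison, and 4.2% with the mutant lower. Cdh11 had 340, 403 and 397 cpm in WT, 399, 412 and 401 cpm in Isl1Cre/+ and 390, 392 and 392 cpm in the mutant, a narrow gap in which WT overlapped both (log2 fold change -0.05, standard error 0.0572). Celsr2, a seven-pass cadherin of planar polarity and axon guidance, had 66.2, 64.6 and 64.7 cpm in Isl1Cre/+ and 60.03, 49.9 and 61.9 cpm in the mutant, with WT between 60.1 and 67.0 cpm. Its log2 fold change of -0.19 had a standard error of 0.0864 and an unadjusted p of 0.0657 from edgeR. Without mutant library 2 the value was -0.09, and 3 of 15 alternatives had an unadjusted p under 0.05. Against WT, 2 members did not overlap, Cdh13 and Pcdh11x, both lower, against 2.76% of all genes (1.74% lower). Between Isl1Cre/+ and WT, Cdh2 alone did not overlap, against 5.66% of all genes (2.95% higher in Isl1Cre/+).

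Most fitted differences were small, and more members were lower than higher in the mutant. Relative to WT, 24 of 36 had a negative log2 fold change (66.7%, against 53.8% of all genes tested), with a median of -0.07 against -0.01 for all genes. Relative to Isl1Cre/+, 27 of 36 were negative (75%, against 49.8%), with a median of -0.09 against 0.00. Between Isl1Cre/+ and WT, 14 of 36 were negative (38.9%, against 50.7%), with a median of 0.03 against 0.00. These comparisons share libraries in pairs, and the spread of the members' median log2 cpm between replicates was 0.101, larger than each of these medians. Leaving out mutant library 2 brought the median against WT to -0.037. Leaving out Isl1Cre/+ library 3 brought the median against Isl1Cre/+ to -0.037 and that of Isl1Cre/+ against WT to 0.00069. Of 11 sensory neuron markers, 9 were likewise negative in each comparison of the mutant, with medians of -0.12 against WT and -0.046 against Isl1Cre/+. Against Isl1Cre/+, 6 of 6 tested skeletal muscle markers (median 2.99) and 6 of 6 red blood cell markers (median 2.07) met the criterion as higher in the mutant. Against WT their medians were 0.92 and 0.71, with 0 meeting it. The part of these markers in the members' values was not tested.

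By family, the 3 Celsr genes were all on the lower side in the mutant, with medians of -0.13 against WT and -0.16 against Isl1Cre/+. The 5 delta-2 protocadherins had medians of -0.13 in both, with 4 of 5 negative, and the lowest of them against Isl1Cre/+ was Pcdh10 at -0.21 (standard error 0.117). Without Isl1Cre/+ library 3 that value of Pcdh10 was -0.07. The 12 type II cadherins had medians of -0.04 and -0.11. The 5 Fat and Dachsous genes had medians above 0, at 0.05 against WT with 2 of 5 negative (Fat3 and Dchs1) and 0.17 against Isl1Cre/+ with 1 of 5 negative (Dchs1), and 0 of 5 passed the test. Fat1, Fat2 and Fat4 were highest in mutant library 2, and without it the values of Fat2 turned to -0.40 and -0.23. In the other mutant libraries Fat1 had 72.1 and 71.2 cpm and Fat4 40.1 and 36.1 cpm, below the WT means of 77.0 and 41.9 cpm. The Celsr genes also leaned on that library, since Celsr2 against WT went from -0.14 to -0.026 without it. The 52 clustered protocadherins that were tested had medians of 0.00 and -0.10, against -0.11 and -0.09 for the 11 non-clustered members. Against Isl1Cre/+, 5 of the 52 met the criterion as lower and 0 of the 11 did, beside 0.265% of all genes called lower. Against WT, 0 of the 52 and 1 of the 11 met it as lower, beside 0.258% of all genes. Between Isl1Cre/+ and WT, 15 of the 52 were negative (28.8%, against 50.7% of all genes), with a median of 0.09. There 2 of the 52 and 0 of the 11 met it as higher, beside 0.258% of all genes. The differences between these counts were not tested.

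**Figure D3:**
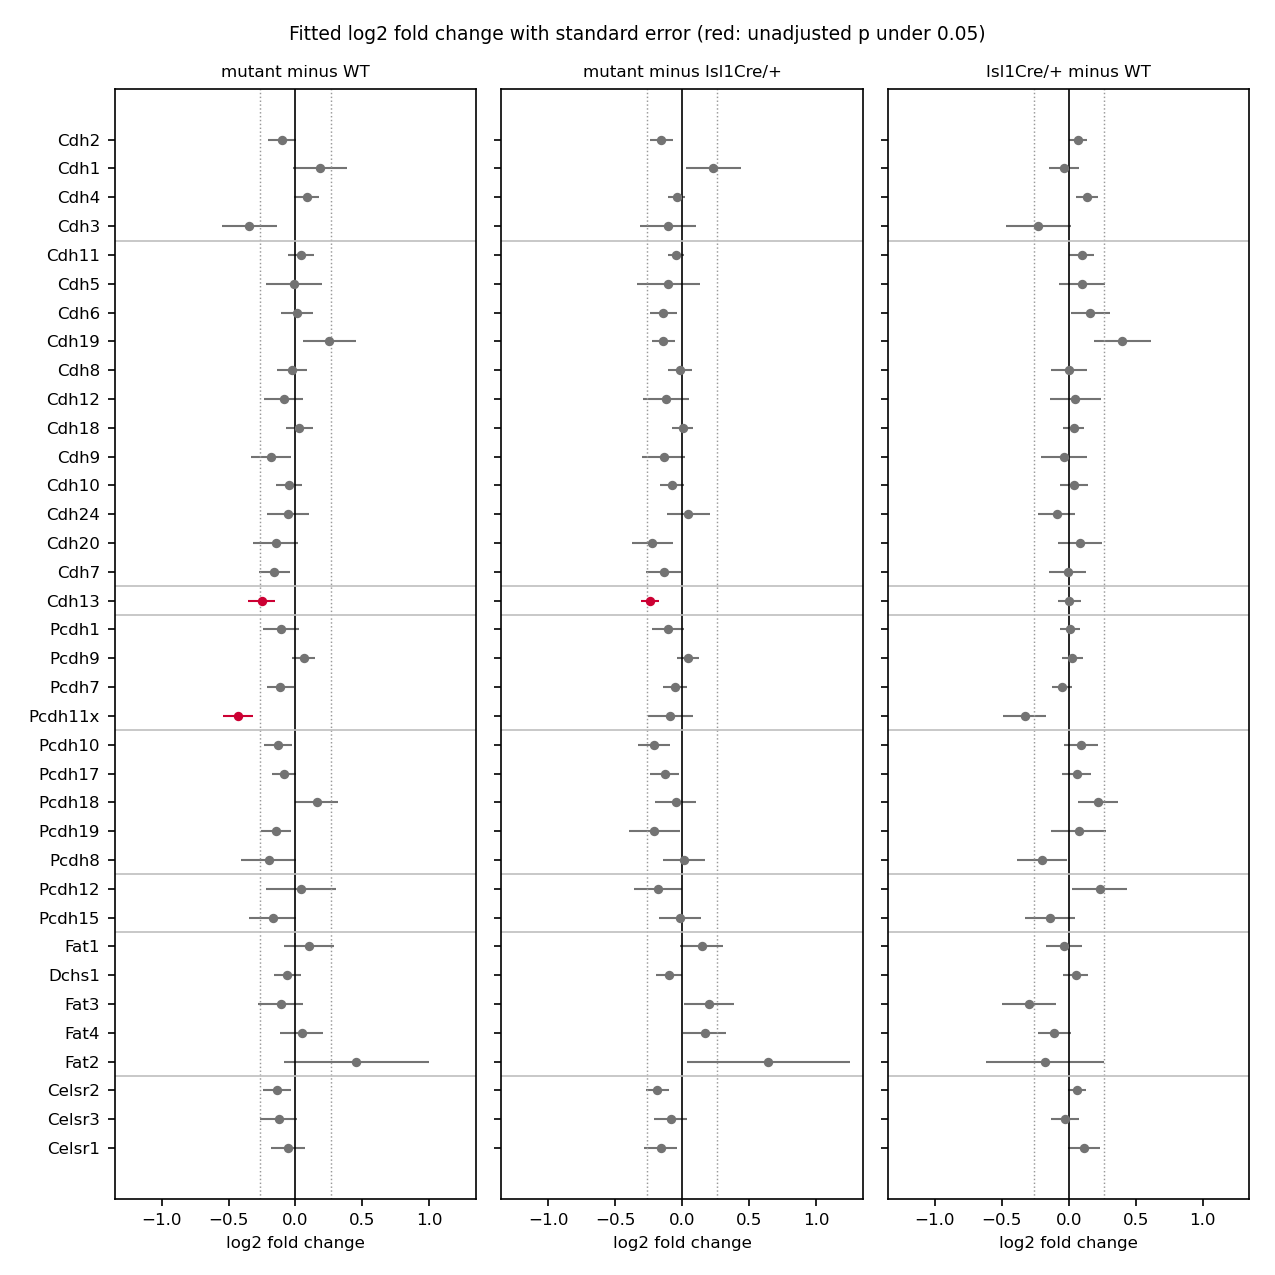
Fitted log2 fold change of the 36 members in each of the 3 comparisons, with bars for the standard error and dotted lines at the 1.2-fold limit of 0.263. Red marks an unadjusted p under 0.05, reached by Pcdh11x and Cdh13 relative to WT and by Cdh13 relative to Isl1Cre/+; the widest bars belong to Fat2.

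Other members, most of them among the most abundant of their families, did not pass the test in any comparison. Pcdh1 had 266, 251 and 236 cpm in WT, 252, 246 and 254 cpm in Isl1Cre/+ and 254, 187 and 258 cpm in the mutant, so that mutant library 2 alone was low, and the log2 fold changes of the mutant were -0.11 against each control genotype. Pcdh9, another adhesion molecule of the delta-1 group, had 119, 114 and 116 cpm in WT, 107, 122 and 122.8 cpm in Isl1Cre/+ and 132, 115 and 117 cpm in the mutant. Its 3 groups overlapped, and its differences were 0.06 against WT and 0.05 against Isl1Cre/+. Pcdh10 and Pcdh17, delta-2 protocadherins that bind the actin regulators of the WAVE complex, both peaked in Isl1Cre/+ library 3. Pcdh10 had 179, 151 and 164 cpm in WT, 159, 156 and 205 cpm in Isl1Cre/+ and 165, 140 and 145 cpm in the mutant. Pcdh17 had 124, 115 and 122.5 cpm in WT, 110, 121 and 142 cpm in Isl1Cre/+ and 124, 104 and 112 cpm in the mutant, and neither gene separated the genotypes. Pcdh15 was near the count filter in all libraries, at 7.57, 5.84 and 5.21 cpm in WT, 4.70, 6.54 and 5.504 cpm in Isl1Cre/+ and 5.23, 5.85 and 5.46 cpm in the mutant. Fat1 had 92.9, 67.3 and 70.7 cpm in WT, 81.7, 77.4 and 64.5 cpm in Isl1Cre/+ and 72.1, 104 and 71.2 cpm in the mutant, with WT library 1 and mutant library 2 above the rest. Dchs1 had 46.5, 40.2 and 40.4 cpm in WT, 46.5, 45.3 and 38.7 cpm in Isl1Cre/+ and 37.0, 43.6 and 41.4 cpm in the mutant, and its log2 fold changes of -0.060 and -0.099 in the mutant were about as large as their standard errors or smaller. Celsr3, which guides axon tracts, had 75.9, 61.6 and 62.3 cpm in WT, 61.2, 72.1 and 60.7 cpm in Isl1Cre/+ and 68.2, 50.6 and 64.3 cpm in the mutant, where library 2 was again the lowest.

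The plot of fold changes places Fat2 farthest from 0 in both comparisons of the mutant, yet with the widest errors. Fat2, a giant cadherin best known from cerebellar granule cells, had 3.61, 2.27 and 1.81 cpm in WT, 2.72, 3.04 and 0.953 cpm in Isl1Cre/+ and 1.92, 6.69 and 1.89 cpm in the mutant. A single library, mutant 2, stood far above the rest. The log2 fold change of 0.45 relative to WT became -0.40 without that library, and 0.65 relative to Isl1Cre/+ became -0.23. Cdh1 behaved in the same way, with 87.3, 79.1 and 71.3 cpm in WT, 84.2, 81.0 and 64.8 cpm in Isl1Cre/+ and 78.0, 121 and 71.0 cpm in the mutant. Its log2 fold change of 0.19 relative to WT became -0.07 without that library. In mutant library 2, red blood cell markers summed to 3972 cpm and skeletal muscle markers to 2059 cpm, each the highest of the 9 libraries. Fibroblast and meningeal markers (5553 cpm), macrophage markers (104.8 cpm) and epithelial markers (4.75 cpm) were highest there too. The part of these markers in the values of Fat2 and Cdh1 was not tested.

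Between Isl1Cre/+ and WT, the largest log2 fold changes were those of Cdh19, Pcdh11x and Fat3, at 0.40, -0.33 and -0.29, and none of them passed the test in the main fit. Of 15 alternatives, 3 met the criterion for Cdh19, 2 for Pcdh11x and 1 for Fat3. Cdh19 had 23.2, 36.7 and 41.3 cpm in WT, 45.9, 39.5 and 47.6 cpm in Isl1Cre/+ and 38.8, 42.6 and 39.4 cpm in the mutant, so that WT library 1 stood alone below the other 8. Its difference had a standard error of 0.211 and an unadjusted p of 0.0982 from edgeR. It was 0.17 without WT library 1, 0.58 without WT library 3 (unadjusted p = 0.0298 from edgeR) and 0.10 with the term for Y-linked counts (unadjusted p = 0.712 from edgeR). Markers of Schwann and satellite glia summed to 1272 cpm in that library, within the 1105 to 1339 cpm of the others. Fat3, which shapes neurites in the retina, had 82.4, 56.0 and 62.2 cpm in WT, 44.4, 70.3 and 47.2 cpm in Isl1Cre/+ and 72.4, 57.5 and 55.9 cpm in the mutant, with overlapping groups, and its -0.29 became -0.14 without WT library 1 and -0.53 without Isl1Cre/+ library 2, where it met the criterion (unadjusted p = 0.0172 from edgeR). Cdh3, the placental cadherin, had 23.2, 17.5 and 13.8 cpm in WT, 16.1, 19.2 and 10.8 cpm in Isl1Cre/+ and 16.0, 12.1 and 14.9 cpm in the mutant, a log2 fold change in the mutant against WT of -0.34 with a standard error of 0.204. That value was -0.13 without WT library 1, -0.21 without mutant library 2 and -0.19 with the term for Y-linked counts, but -0.51 without WT library 3 (unadjusted p = 0.0296 from edgeR).

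The endothelial members were compared with the markers of that cell type. Endothelial markers summed to between 178 and 245 cpm in WT, 260 and 331 cpm in Isl1Cre/+ and 197 and 286 cpm in the mutant, and 3 of 8 (Kdr, Flt1 and Pecam1) met the criterion as higher in Isl1Cre/+ than in WT, against 0.258% of all genes called higher. In the mutant against Isl1Cre/+, 8 of 8 were negative with a median of -0.18, and Kdr met the criterion as lower (log2 fold change -0.37, edgeR's unadjusted p = 0.0376). Cdh5 had 151, 119 and 126 cpm in WT, 180, 124 and 117 cpm in Isl1Cre/+ and 93.9, 170 and 128 cpm in the mutant. Pcdh12 had 7.42, 12.9 and 12.1 cpm in WT, 12.6, 12.2 and 13.0 cpm in Isl1Cre/+ and 8.57, 10.5 and 14.4 cpm in the mutant. Within WT and within the mutant both spread more widely than the genotype means, while the Isl1Cre/+ libraries of Pcdh12 lay close together, with log2 fold changes in Isl1Cre/+ relative to WT of 0.10 for Cdh5 (standard error 0.170) and 0.23 for Pcdh12 (standard error 0.207). In the mutant relative to Isl1Cre/+ the values were -0.10 for Cdh5 (standard error 0.238) and -0.18 for Pcdh12 (standard error 0.178), and neither passed the test.

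**Figure D4:**
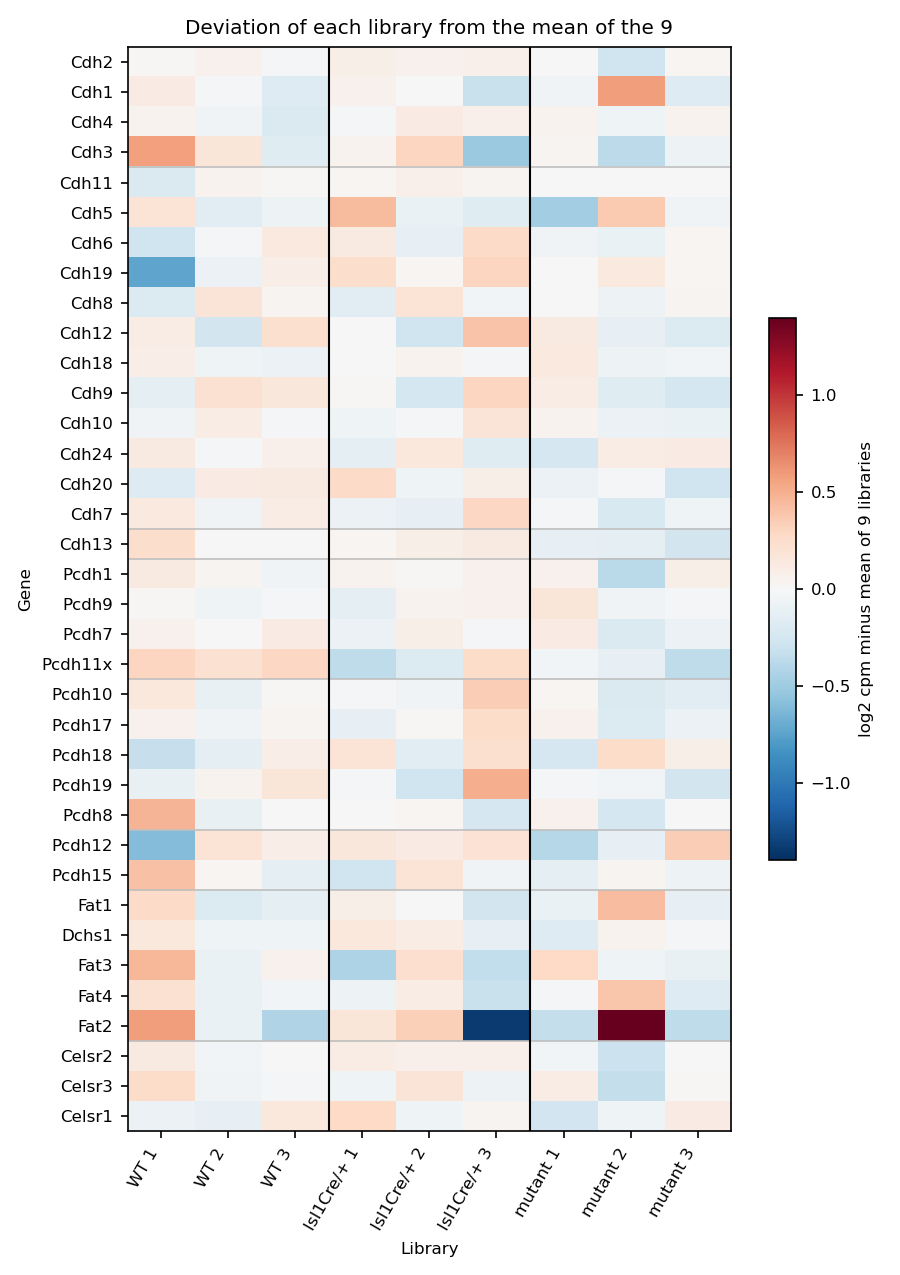
Deviation of each library from the mean of the 9 libraries on the log2 cpm scale, with 1 row per member and 1 column per library, red above and blue below the mean. Single columns stand out more than blocks of 3: WT library 1, Isl1Cre/+ library 3 and mutant library 2 hold most of the strong colours.

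The map of deviations by library shows that much of the spread came from single libraries. WT library 1 was highest in 9 members and lowest in 6, Isl1Cre/+ library 3 highest in 9 and lowest in 5, and mutant library 2 highest in 5 and lowest in 9, whereas an equal share would be 4 of each. Across all genes tested the corresponding shares were 30.4% highest and 24.7% lowest for WT library 1, 8.33% and 11.3% for Isl1Cre/+ library 3, and 18.3% and 16.2% for mutant library 2. For the members these shares were 25% and 16.7%, 25% and 13.9%, and 13.9% and 25%. The members highest in Isl1Cre/+ library 3 were Cdh6, Cdh7, Cdh9, Cdh10, Cdh12, Cdh19, Pcdh10, Pcdh17 and Pcdh19. In mutant library 2, Fat1, Fat2, Fat4, Cdh1 and Pcdh18 were highest, while Cdh2, Cdh7, Celsr2, Celsr3, Pcdh1, Pcdh7, Pcdh8, Pcdh10 and Pcdh17 were lowest.

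The partners of these proteins were read in the same fits. Of 13 tested catenins and related cytoplasmic partners, 13 planar cell polarity genes, 11 proteases and convertases that process cadherins and 5 other proteins with cadherin repeats, 0 met the criterion in any comparison. With shares of 0.318%, 1.67% and 1.4% among all genes, lists of this size would hold few or no calls at the background rate. Ctnnb1, the beta-catenin that binds classical cadherins, was the most abundant cytoplasmic partner at 119 per kilobase, above every member, and the calsyntenin Clstn1 led the other cadherin-repeat proteins at 102. In the mutant, 11 of 13 catenins and partners had negative log2 fold changes relative to WT and 12 of 13 relative to Isl1Cre/+, with medians of -0.06 and -0.08. Of the planar polarity genes 10 and 9 were negative, with medians of -0.09 and -0.09. The proteases had 4 and 6 negative values of 11, with medians of 0.04 and -0.03.

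Members lie in groups on several chromosomes. Cdh6, Cdh9, Cdh10, Cdh12 and Cdh18 share chromosome 15, and Cdh20, Cdh7 and Cdh19 share chromosome 1. Chromosome 8 holds 9 of the 44 named genes, among them the adjacent Cdh3 and Cdh1, 46053 bases apart, whose levels on the per-kilobase scale were 3.64 and 17.9. RefSeq promoter windows of GRCm38.p6, the 250 bases before an annotated gene start, were matched by symbol for 23 of the 36 members, in 26 windows. Pcdh11x, Cdh13, Cdh2 and Cdh11 were among the 13 without an entry. The windows of members held a median of 12 CG dinucleotides, against 6 in all windows.

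Meis proteins bind a core written TGACAG, and this hexamer or its reverse complement CTGTCA stood in 4 of 26 windows (15.4%), against 15.9% of all 32851 windows. They belonged to Cdh6, Cdh7, Cdh20 and Fat1. The inverted CCAAT hexamer GATTGG, or CCAATC on the other strand, was chosen after the sequences had been seen and stood in 9 of 26 (34.6%), against 14.6% of all windows. Of the 5 delta-2 protocadherins, 4 held it (Pcdh10, Pcdh17, Pcdh18 and Pcdh19), and Pcdh9, Cdh7, Cdh9 and Cdh18 held it as well. The windows below are a selection that lets the letters be compared between 4 protocadherins with the inverted CCAAT hexamer and 2 cadherins with a Meis core. The 4 are Pcdh9 of the delta-1 group and Pcdh10, Pcdh17 and Pcdh19 of the delta-2 group, without Pcdh18. A match is a description of letters, not of binding. Capitals mark GATTGG or CCAATC in the first 4 windows and CTGTCA in the last 2. All are written 5′ to 3′ on the strand of the gene.
Pcdh9, chr14:93890680-93890929, reverse strand: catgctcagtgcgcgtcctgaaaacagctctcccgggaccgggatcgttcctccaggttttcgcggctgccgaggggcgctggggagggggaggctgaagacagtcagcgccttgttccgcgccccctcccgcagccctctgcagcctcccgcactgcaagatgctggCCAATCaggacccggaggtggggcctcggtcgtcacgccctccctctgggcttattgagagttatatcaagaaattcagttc
Pcdh10, chr3:45378148-45378397, forward strand: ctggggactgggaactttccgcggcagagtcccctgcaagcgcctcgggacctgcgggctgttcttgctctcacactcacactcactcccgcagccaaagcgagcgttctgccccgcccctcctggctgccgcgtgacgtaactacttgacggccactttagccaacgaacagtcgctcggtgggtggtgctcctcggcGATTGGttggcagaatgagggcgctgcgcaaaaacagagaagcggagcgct
Pcdh17, chr14:84443313-84443562, forward strand: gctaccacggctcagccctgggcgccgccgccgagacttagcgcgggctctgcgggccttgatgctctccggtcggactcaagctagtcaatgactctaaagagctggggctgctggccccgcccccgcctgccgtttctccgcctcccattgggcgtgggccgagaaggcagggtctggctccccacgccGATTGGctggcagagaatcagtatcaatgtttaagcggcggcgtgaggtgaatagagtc
Pcdh19, chrX:133688994-133689243, reverse strand: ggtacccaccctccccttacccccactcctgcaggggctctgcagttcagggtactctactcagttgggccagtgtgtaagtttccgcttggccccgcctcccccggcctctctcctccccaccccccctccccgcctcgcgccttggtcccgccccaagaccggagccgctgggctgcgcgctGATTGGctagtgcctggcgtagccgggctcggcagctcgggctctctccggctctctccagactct
Cdh6, chr15:13173676-13173925, reverse strand: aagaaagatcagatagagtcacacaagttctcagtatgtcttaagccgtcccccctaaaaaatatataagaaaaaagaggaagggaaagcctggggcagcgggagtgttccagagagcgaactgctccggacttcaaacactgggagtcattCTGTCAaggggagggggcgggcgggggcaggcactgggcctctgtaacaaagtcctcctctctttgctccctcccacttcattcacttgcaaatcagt
Cdh20, chr1:104768270-104768519, forward strand: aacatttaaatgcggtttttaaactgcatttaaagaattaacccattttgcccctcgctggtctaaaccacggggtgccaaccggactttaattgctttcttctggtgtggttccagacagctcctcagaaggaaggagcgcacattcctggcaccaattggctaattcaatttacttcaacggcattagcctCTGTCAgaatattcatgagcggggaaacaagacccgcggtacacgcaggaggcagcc
In the windows shown, the hexamer began 82 bases before the gene start in Pcdh9, 51 in Pcdh10, 59 in Pcdh17 and 66 in Pcdh19. Its place in the other windows that hold it is not given here. The Meis core began 98 bases before the start of Cdh6 and 57 before that of Cdh20. Of the 4 members with the core, Cdh6 had log2 fold changes in the mutant of 0.01 against WT and -0.14 against Isl1Cre/+, and Cdh20 of -0.15 and -0.22. Those of Cdh7 were -0.16 and -0.14 and those of Fat1 0.10 and 0.15, and none of these differences passed the test.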

How the data were processed

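RNA sequencing of E18.5 DRG was analysed in 9 libraries, grouped by the genotype in their labels. The authors deposited raw counts per gene. They selected poly(A) RNA, used unique molecular identifiers in library preparation, mapped single-end reads to mm10 with STAR 2.7.10, removed duplicates and counted uniquely mapped reads with HTSeq 0.6. The annotation release and strand option are not given in the sources used here. Deposited columns of fold changes, p-values and statistics of the authors' own comparisons were not used.

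Gene lengths and positions came from GENCODE M21. Exons of 32 of the 44 named genes overlap no other gene, 10 overlap one on the opposite strand and 2 one on the same strand. How reads in such overlaps were counted depends on options that are not given in the sources used here. Each pair of genotypes was fitted alone with edgeR 4.0.16 in R 4.3.3 on the 13200 genes that reached 100 counts in any library, after TMM scaling. Tests were edgeR's quasi-likelihood test, two-sided, adjusted by the Benjamini-Hochberg method. Standard errors were the absolute log2 fold change divided by the root of the F statistic. An exact permutation test of 3 against 3 libraries cannot go below 0.1. Counting error was 2.95% at the median member count of 1146 and 10% at 100 counts, and covers counting only. The edgeR fit of the mutant against WT was also run on simulated counts, from which no result is given here.

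Members and lists were chosen with earlier results of these data known. Values in every library are given for members that met the criterion, the 3 largest changes per comparison, members whose libraries separate genotypes, and the most abundant members of a family. Pcdh12, Cdh19 and Fat2 were also described for their spread after their values were seen. Alternatives were other scalings (DESeq2 1.42.0 size factors, library size), filters, DESeq2's Wald test, limma 3.58.1 voom, a joint fit, a replicate block, fold limits and each library left out. The Y-linked covariate was added after seeing the data.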

Additional observations from a re-analysis of the deposited data

How the results depend on the processing

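Pcdh11x met the criterion relative to WT in 15 of 15 alternatives, between -0.49 and -0.34. The count of members meeting it was 3 without WT replicate 3 (with Cdh3 and Cdh13), so that leaving out single libraries gave 1 to 3, and 0 at a fold change of 1.5. Relative to Isl1Cre/+ the count of 0 became 1 with library size only and 1 with the Y-linked covariate, both Cdh13. Leaving out single libraries gave 0 to 1: Cdh13 without Isl1Cre/+ 1 or mutant 1, Fat3 without Isl1Cre/+ 2, and Pcdh12 without mutant 3. Between Isl1Cre/+ and WT, 1 member (Cdh19) met it with no filter on low counts, and single libraries left out gave 0 to 1: Cdh19 without WT 3, Fat3 without Isl1Cre/+ 2, Pcdh11x without Isl1Cre/+ 3. The medians moved by less than 0.101, the spread of the members' median log2 cpm between replicates, in every alternative. The main medians of -0.07, -0.09 and 0.03 were themselves smaller than that. This limit therefore cannot tell a median that held from one that vanished. Replicate numbers do not pair the libraries: across genes, deviations of same-numbered libraries correlated between -0.553 and 0.386, and with the number as a block 2 members (Cdh19 and Pcdh11x) met the criterion between Isl1Cre/+ and WT. The sign of uncalled differences of single members turned when single libraries were left out. Over such fits, values against WT ran from -0.066 to 0.33 for Cdh1, -0.15 to 0.013 for Cdh2 and -0.40 to 0.78 for Fat2, each turned by mutant 2, and from -0.24 to 0.067 for Fat3, turned by WT 1. Against Isl1Cre/+ they ran from -0.033 to 0.38 for Cdh1 and -0.23 to 0.94 for Fat2, turned by mutant 2, from -0.30 to 0.088 for Cdh3, turned by mutant 2 (0.013) or Isl1Cre/+ 2, and from -0.21 to 0.11 for Pcdh11x, turned by Isl1Cre/+ 3. In Isl1Cre/+ against WT they ran from -0.11 to 0.065 for Cdh1 and -0.46 to 0.18 for Fat2, turned by WT 1 or Isl1Cre/+ 3, from -0.052 to 0.16 for Pcdh10, turned by Isl1Cre/+ 3, and from -0.034 to 0.065 for Cdh13. There the Y-linked covariate gave 0.10 for Cdh1, 0.15 for Cdh3 and 0.30 for Fat2, and Cdh13 was -0.0054 with 100 counts in every library and -0.011 in the joint fit. The cause was not tested. Depth limits the lowest member count, 27, to a counting error of 19.2%.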
